A study of Mus musculus with 12 samples.

Results

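Messenger RNA of 10 inflammatory and regulatory cytokine genes was followed in mouse bone marrow macrophages with and without leukemia. The genes were chosen by symbol, with earlier results of these data known. They were Il1a, Il1b, Il18 and Il1rn of the interleukin-1 family, Tnf, the gp130 cytokines Il6, Osm and Lif, and Il12a and Il10. They are 10 of the 56832 gene entries in the count table, and all 10 had enough counts to be among the 15758 genes tested. The marrow came from healthy mice (called non-leukemic) or from mice at day 11 after transplantation of bcCML model cells (a model of blast-crisis chronic myeloid leukemia) with late-stage disease. Macrophages were sorted by flow cytometry for CD45 and F4/80 with Ly6g- and Ly6c- gates, and each of the 4 groups formed by sex and condition had 3 libraries. The study is titled for lactate in leukemic marrow and its receptor GPR81. Strain, age and what the healthy mice received are not given in the sources used here, nor is whether replicates were separate animals, so each p measures the spread between libraries.

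Macrophages are a main source of these cytokines in many tissues. IL-1α, IL-1β and IL-18 act through receptors that recruit the adaptor MyD88, and IL-1β and IL-18 are made as precursors that inflammasome caspases cut. IL-1Ra, from Il1rn, occupies the IL-1 receptor without signalling. TNF is shed from the cell surface and acts through its receptors TNFR1 and TNFR2. IL-6, oncostatin M and LIF share the receptor subunit gp130, which activates STAT3 and is restrained by SOCS3. IL-12 joins the p35 subunit, from Il12a, to p40, from Il12b, and drives interferon gamma production by T and NK cells, whereas IL-10 dampens macrophage cytokine production.

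Transcription of many of these genes is controlled close to the start site, so the 250 bases before it are shown for a cytokine that rose (Il6) and for the 2 best-known proinflammatory members that did not pass the test (Il1b and Tnf). They are printed 5′ to 3′ on the gene's strand, from RefSeq on GRCm38.p6, which is an older build than the GRCm39 the counts rest on. Capitals mark matches to a TATA box (TATAAA), an AP-1 site (TGANTCA), a C/EBP site (TTNCNNAA) or the NF-κB consensus, on either strand, and no marked matches overlap.
Il6, chr5:30012864-30013113, plus strand: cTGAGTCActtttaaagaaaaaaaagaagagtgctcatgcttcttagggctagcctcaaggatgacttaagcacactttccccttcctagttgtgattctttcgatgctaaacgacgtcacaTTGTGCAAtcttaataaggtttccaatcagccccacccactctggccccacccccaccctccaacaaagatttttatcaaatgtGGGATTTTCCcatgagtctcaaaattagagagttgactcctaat
Il1b, chr2:129371140-129371389, minus strand: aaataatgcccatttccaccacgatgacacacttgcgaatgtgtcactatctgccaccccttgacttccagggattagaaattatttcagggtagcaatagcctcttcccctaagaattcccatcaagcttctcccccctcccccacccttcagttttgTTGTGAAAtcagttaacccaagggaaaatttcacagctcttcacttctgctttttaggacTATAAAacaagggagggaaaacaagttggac
Tnf, chr17:35202008-35202257, minus strand: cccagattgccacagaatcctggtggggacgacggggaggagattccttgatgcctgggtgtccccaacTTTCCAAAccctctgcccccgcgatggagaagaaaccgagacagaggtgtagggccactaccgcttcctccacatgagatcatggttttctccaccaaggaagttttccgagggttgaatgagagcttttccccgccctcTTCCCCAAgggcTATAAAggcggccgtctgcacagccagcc
The Il6 window held an AP-1 match from -249 to -243, a C/EBP match from -128 to -121 and an NF-κB match from -44 to -35, counted from the start site. The Il1b window held a TATA box from -31 to -26 and a C/EBP match from -91 to -84. In the Tnf window a TATA box lay at -29 to -24, with C/EBP matches at -181 to -174 and -41 to -34.

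RefSeq windows were found for 8 of the 10 members, with 11 windows in all, and none for Osm and Il10. An NF-κB match was also in the Lif window, and both Il12a windows held none of the motifs. A STAT site (TTCNNNGAA) was in none of the 11 windows. Among 32851 promoter windows of this length, 12.4% held the TATA box, 6.75% the AP-1 site, 7.25% the NF-κB consensus, 7.02% the STAT site and 36.8% the C/EBP site. These matches describe letters only. On the same reference, Il1a and Il1b lie on chromosome 2 with 0 protein-coding genes between them, and Osm and Lif are likewise neighbours on chromosome 11.

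Total counts per library ran from 16911827 to 26611831 in non-leukemic and from 22437689 to 30014855 in leukemic libraries, and a count of 0 allows up to 0.0999505 to 0.177391 CPM (counts scaled to the library total). In female leukemic replicate 1 only 17891 genes had a count, where the others had 19521 to 21247. In male non-leukemic replicate 3 the 14 macrophage marker genes held 0.522% of counts, while the rest of that condition had 0.139% to 0.189%. These are the libraries said below to stand apart. The macrophage markers were present, with Adgre1 (F4/80) at 121 ± 68.1 CPM in non-leukemic and 52.8 ± 12.3 CPM in leukemic libraries (SD, n = 6), but transcripts of other cells were also abundant. Neutrophil markers held 2.87% to 6.6% of non-leukemic and 1.33% to 2.8% of leukemic counts, and basophil and mast cell markers 0.39% to 0.828% and 0.958% to 3.44%. T and NK cell markers held 0.0292% to 0.0586% and 0.127% to 0.268%.

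The first question was which cytokine transcripts differ in late leukemia. Il6, Osm, Il10 and Il12a were higher in leukemic libraries, with fitted folds of 4.22, 1.98, 6.3 and 1.56. Il1a, Il1b, Il18, Il1rn, Tnf and Lif did not pass the test in either direction. Of all tested genes 17.9% passed, with 8.71% rising and 9.2% falling (1373 and 1449 genes). With 4 of 10 members rising and 0 falling, their median effect was 0.50 on the log2 scale, beside -0.01 over all genes. Scaling by library totals only called 1673 higher and 1120 lower genes and moved the median of all genes to 0.07. The test was edgeR's quasi-likelihood test with sex as a term, with Benjamini-Hochberg adjustment over all 15758 genes and a threshold of 0.05. In bulk samples, fewer cells of a type and less RNA per cell cannot be told apart.

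**Figure D1:**
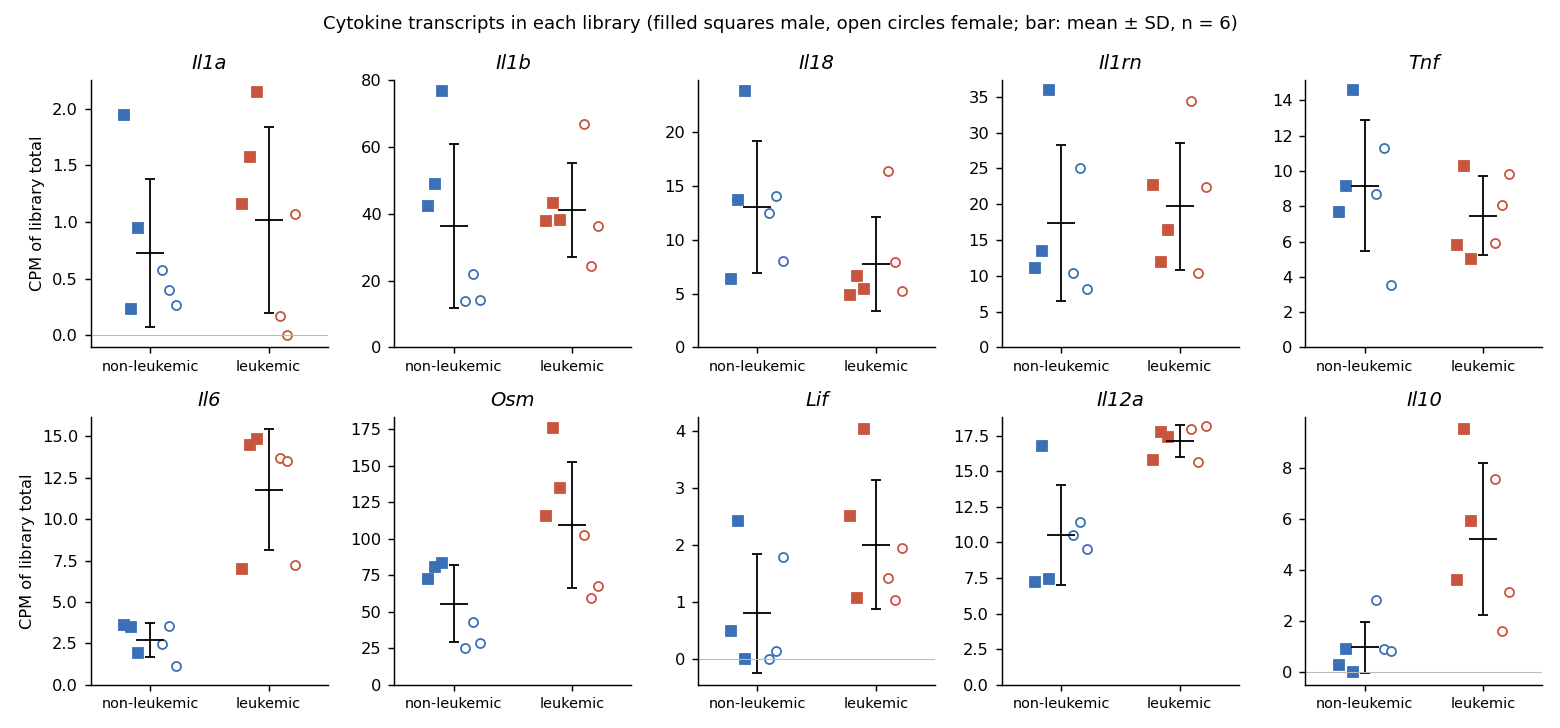
Levels of the 10 cytokine transcripts in each library, in CPM, with 1 panel per gene, 1 point per library and libraries grouped by sex and condition. All 6 leukemic libraries lie above all 6 non-leukemic libraries for Il6, at 7.0 to 14.9 against 1.16 to 3.63 CPM, and for no other member.

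Of the gp130 cytokines, Il6, a driver of acute-phase and B-cell responses, separated the conditions fully. Its levels were 3.63, 3.49 and 1.89 CPM in male and 2.44, 3.54 and 1.16 CPM in female non-leukemic libraries. In leukemic libraries they were 7.0, 14.5 and 14.9 CPM in males and 13.7, 13.5 and 7.22 CPM in females. The lowest leukemic library was above the highest non-leukemic one. Il6 was the 1 member of 10 without overlap, where 8.68% of all genes had none (5.05% with leukemic libraries higher). The log2 fold change was 2.08 ± 0.33 (SE, edgeR adjusted p = 0.0009603), and the mean rose from 2.69 ± 1.03 to 11.8 ± 3.66 CPM (SD, n = 6). The call held in each of 22 alternative fits, with log2 fold changes of 1.88 to 2.26.

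Osm encodes oncostatin M, which myeloid cells make and which acts on stromal and bone cells. Its levels were 72.7, 80.9 and 83.7 CPM in male non-leukemic and 116, 176 and 135 CPM in male leukemic libraries. In females they were 24.9, 42.9 and 28.9 CPM without and 102, 59.5 and 67.6 CPM with leukemia. Within each sex every leukemic library was above every non-leukemic one, whereas 4 of 6 leukemic libraries were above all non-leukemic libraries of both sexes. Osm rose by 0.98 ± 0.21 on the log2 scale (SE, edgeR adjusted p = 0.006397). Without the sex term the call was lost (edgeR adjusted p = 0.09095).

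Lif, a gp130 cytokine known for its effects on stem cells and bone, was near the detection limit. Its counts summed to 103 over the non-leukemic and 323 over the leukemic libraries. Non-leukemic levels ran from 0 to 2.42 CPM with a median of 0.324, and leukemic levels from 1.05 to 4.03 CPM with a median of 1.70. Male non-leukemic replicate 3 and female non-leukemic replicate 1 had a count of 0. The groups overlapped, and the log2 fold change of 1.24 had a 95% interval of -0.63 to 3.11 (edgeR adjusted p = 0.428).

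Il10, the regulatory cytokine, was low in non-leukemic libraries. Levels were 0.272, 0.887 and 0 CPM in males and 2.82, 0.899 and 0.827 CPM in females. Leukemic levels were 3.61, 9.51 and 5.92 CPM in males and 7.56, 1.61 and 3.12 CPM in females. The leukemic library at 1.61 CPM (female replicate 2) was the 1 that did not exceed all non-leukemic libraries. Counts summed to 120 without and 854 with leukemia, and the log2 fold change was 2.66 ± 0.80 (SE, edgeR adjusted p = 0.03517). Il10 passed in 10 of 22 alternative fits, and did not with limma-voom (limma-voom adjusted p = 0.06441). The call was lost in 8 of 12 fits that left out 1 library, namely male non-leukemic replicates 1 and 2, female non-leukemic replicates 2 and 3, each male leukemic replicate and female leukemic replicate 1, where adjusted p ran from 0.05002 to 0.08597.

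Il12a, the p35 subunit gene, had a narrow range in leukemic libraries. Non-leukemic levels ran from 7.25 to 16.8 CPM with a median of 10.04, and leukemic levels from 15.7 to 18.2 CPM with a median of 17.6. Male non-leukemic replicate 2, at 16.8 CPM, lay within the leukemic range, and the other 5 non-leukemic libraries lay below it. Il12a rose by 0.65 ± 0.20 on the log2 scale (SE, edgeR adjusted p = 0.04482). It passed in 9 of 22 alternative fits, and did not without the low-count filter (edgeR adjusted p = 0.06258). The call was lost in 10 of 12 fits that left out 1 library, and it held without male non-leukemic replicate 2 (adjusted p = 0.003914) and without replicate 2 of the female leukemic group (adjusted p = 0.04625). Without both libraries that stood apart, the edgeR adjusted p was 0.07737 for Il12a and 0.06855 for Il10.

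Il12b, the p40 partner that IL-12 needs, was itself near the detection limit. Its level was 0.862 ± 1.10 CPM in non-leukemic and 1.63 ± 0.953 CPM in leukemic libraries (SD, n = 6), and it did not pass the test (log2 fold change 0.77 ± 1.07, edgeR adjusted p = 0.6896). Il10 counts per 100 Il12a counts ran from 0 to 26.8 in non-leukemic and from 10.3 to 53.6 in leukemic libraries, with overlap between the conditions.

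**Figure D2:**
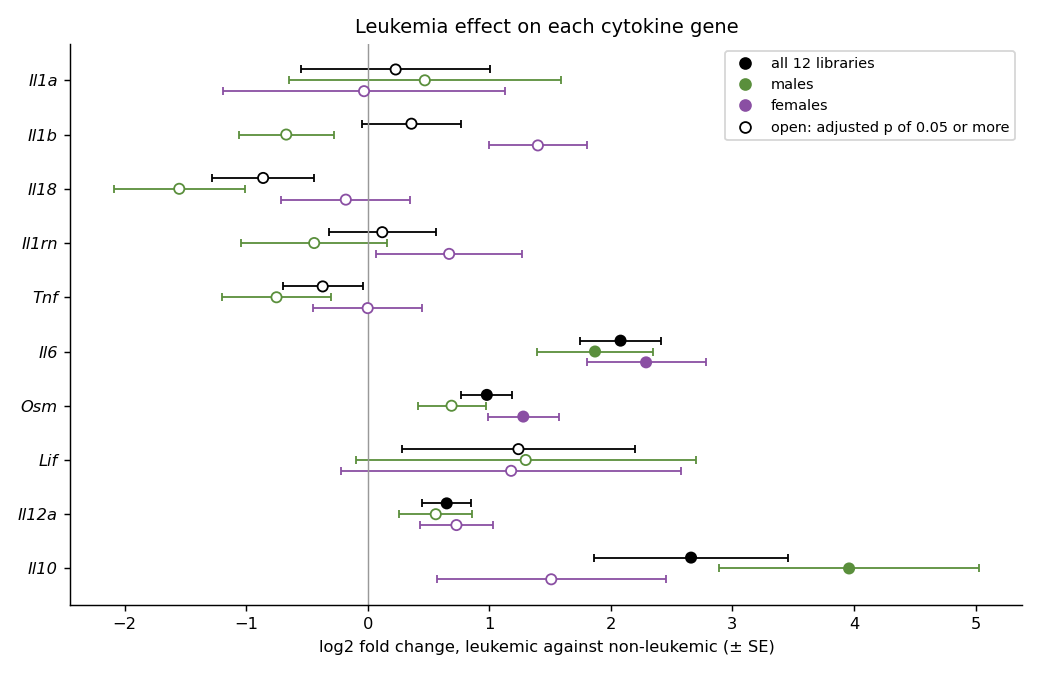
Log2 fold changes of the 10 members, leukemic against non-leukemic, over both sexes and in each sex, with bars of 1 SE and filled points where the gene passed the test. Il6 lies above 1 in each of the 3 comparisons, and Il1b lies below 0 in males (-0.67) and above 0 in females (1.40).

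Among the IL-1 ligands, Il1b had the highest level but no difference past the test. In males its levels were 42.3, 48.9 and 76.9 CPM without and 37.8, 43.1 and 38.3 CPM with leukemia. In females they were 13.9, 22.0 and 14.2 CPM without and 67.0, 24.3 and 36.3 CPM with leukemia. The male groups overlapped, while the female leukemic libraries all lay above the female non-leukemic ones. Over both sexes the log2 fold change was 0.36 with a 95% interval of -0.45 to 1.17 (edgeR adjusted p = 0.62).

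Il1a, whose product also acts from the cell surface and as an alarmin, had 96 counts over the non-leukemic and 161 over the leukemic libraries. Its levels were 0.237 to 1.95 CPM (median 0.487) and 0 to 2.15 CPM (median 1.11), and the groups overlapped. The log2 fold change of 0.23 had a 95% interval of -1.30 to 1.77 (edgeR adjusted p = 0.8837).

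Il18, an inducer of interferon gamma, was at 6.34 to 23.8 CPM (median 13.1) in non-leukemic and 4.87 to 16.3 CPM (median 6.03) in leukemic libraries. The highest leukemic value was that of female replicate 1, and the other leukemic libraries were at 7.94 CPM or less. Its log2 fold change of -0.86 ± 0.42 (SE) did not pass (edgeR adjusted p = 0.1897). Without female leukemic replicate 1 it was -1.23 and passed (edgeR adjusted p = 0.02005), and without both libraries that stood apart it was -0.88 (adjusted p = 0.02492).

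Il1rn, the antagonist gene, was at 8.23 to 35.9 CPM (median 12.3) without and 10.3 to 34.4 CPM (median 19.4) with leukemia. Its highest values in each condition were those of male non-leukemic replicate 3 and female leukemic replicate 1, the libraries that stood apart. The log2 fold change of 0.12 had a 95% interval of -0.75 to 0.98 (edgeR adjusted p = 0.897). The raw ratio of antagonist to ligand, as Il1rn counts per 100 Il1b counts, was 26.3 to 46.7 in male and 57.9 to 114 in female non-leukemic libraries. In leukemic libraries it was 27.5 to 60.1 in males and 42.5 to 61.9 in females, so the sexes overlapped there.

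Tnf, the gene of tumor necrosis factor, was at 3.53 to 14.6 CPM (median 8.94) in non-leukemic and 5.01 to 10.3 CPM (median 6.97) in leukemic libraries. The leukemic range lay inside the non-leukemic one. Its log2 fold change was -0.37 with a 95% interval of -1.01 to 0.27 (edgeR adjusted p = 0.4945).

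The effect in each sex was then taken from 1 fit of all 12 libraries with 4 group means. In males Il6 and Il10 rose, 2 of 10 members, where 7.37% of genes passed (3.34% rose and 4.04% fell). The male log2 fold changes were 1.87 ± 0.48 for Il6 (SE, edgeR adjusted p = 0.035) and 3.96 ± 1.07 for Il10 (adjusted p = 0.04439). In females Il6 and Osm rose, 2 of 10 members, where 8.43% of genes passed (3.84% rose and 4.59% fell). The female log2 fold changes were 2.29 ± 0.49 for Il6 (SE, edgeR adjusted p = 0.01413) and 1.28 ± 0.29 for Osm (adjusted p = 0.01894). Female Il1b, at 1.40 ± 0.40, missed the threshold (edgeR adjusted p = 0.05126), but passed with DESeq2 (1.42, adjusted p = 0.006262) and without female leukemic replicate 2 (1.75, edgeR adjusted p = 0.01826). In males Il18, at -1.55 ± 0.54 (edgeR adjusted p = 0.1114), passed as lower with DESeq2 (adjusted p = 0.03746), and Il12a passed as higher without male non-leukemic replicate 2 (1.03, edgeR adjusted p = 0.04107). In males 3 members had leukemic libraries wholly above non-leukemic ones (Il6, Il10, Osm), where 34.4% of genes had no overlap and 23.7% had none in this direction (10.7% in the other). In females 4 members did so (Il6, Osm, Il12a, Il1b), where 27.9% of genes had no overlap, 13.3% in this direction and 14.6% in the other. With 3 libraries a group these calls depended on single libraries: leaving 1 out gave 0 to 2 members in males and 0 to 3 in females.

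A difference of the leukemia effect between the sexes was tested directly, and 0 of 10 members and 0% of genes passed with edgeR. At an unadjusted p under 0.05 there were 925 genes, limma-voom called 0 and DESeq2 23. Among members Il1b had the lowest p, with a female minus male difference in log2 fold change of 2.07 ± 0.56 (SE, edgeR unadjusted p = 0.003088, adjusted p = 0.8154), and Il10 was at -2.45 ± 1.36 (adjusted p = 0.8242). DESeq2 gave Il1b an adjusted p of 0.09346.

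Sexes were also compared within each condition. Il1b and Osm were the 2 of 10 members whose female non-leukemic libraries lay wholly below the male ones, where 10.6% of genes had no overlap and 4.42% had none in this direction. In 0 members did they lie wholly above, where 6.2% of genes did. Female minus male log2 differences were -1.78 ± 0.40 for Il1b (SE, edgeR unadjusted p = 0.0008681, adjusted p = 0.6387) and -1.32 ± 0.29 for Osm (unadjusted p = 0.0006814, adjusted p = 0.6193). With edgeR 0 members and 0% of genes passed, while 769 genes had an unadjusted p under 0.05, limma-voom called 0 genes and DESeq2 called 34, Il1b (adjusted p = 0.008043) and Osm (adjusted p = 0.009299) among them. The Y-linked gene Eif2s3y, at a log2 difference of -7.67, also did not pass there (edgeR adjusted p = 0.2123). In leukemic libraries Osm was again lower in each female library than in each male one, as was Il1a. There 20.1% of genes had no overlap, 15% with females lower and 5.13% with females higher, and 0 members were of the latter kind. The Osm difference was -0.72 ± 0.28 (SE, edgeR adjusted p = 0.5365). In these libraries too 0 members and 0% of genes passed, with 1370 genes at an unadjusted p under 0.05, 0 by limma-voom and 120 by DESeq2. Neutrophil markers held 3.20%, 5.48% and 6.60% of counts in the male and 2.91%, 4.20% and 2.87% in the female non-leukemic libraries, and their part in these differences was not tested. Y-linked genes had smaller fitted sex differences in leukemic than in non-leukemic libraries, though none passed the edgeR interaction test above. Log2 differences (± SE) were -3.06 ± 1.03 against -11.24 ± 1.92 for Kdm5d and -4.16 ± 1.28 against -11.89 ± 2.34 for Uty. They were -5.04 ± 1.13 against -7.07 ± 1.30 for Ddx3y and -4.25 ± 0.87 against -7.67 ± 1.08 for Eif2s3y. Xist was at 5.17 ± 1.10 against 5.58 ± 1.15. None of these sex-linked genes passed in either condition (edgeR adjusted p of 0.2123 to 0.5986). Counts of 0 in the sex comparisons therefore do not show that the sexes are alike. How the Y-linked values bear on the sex comparisons and the interaction was not tested.

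Levels were compared between genes only after division by exon length, as CPM per kilobase of exon. This length joins the exons of all annotated transcripts of a gene. It can exceed the length of the transcript made, which lowers the level shown. Osm was highest in both conditions, at 24.5 ± 11.7 and 48.1 ± 19.1 CPM per kilobase (SD, n = 6), and Il1b was next at 19.1 ± 12.9 and 21.6 ± 7.4. In non-leukemic libraries Il18 followed at 12.7 ± 5.95, then Il12a at 6.17 ± 2.06, Tnf at 5.59 ± 2.26, Il1rn at 3.14 ± 1.96, Il6 at 1.11 ± 0.423 and Il10 at 0.726 ± 0.755. In leukemic libraries the order after Il1b was Il12a at 10.1 ± 0.654, Il18 at 7.5 ± 4.23, Il6 at 4.86 ± 1.51, Tnf at 4.56 ± 1.37, Il10 at 3.99 ± 2.28 and Il1rn at 3.56 ± 1.61. Il1a and Lif were lowest in both, with means of 0.187 to 0.516. In non-leukemic libraries the intervals of mean ± SD overlapped for all 9 pairs of neighbours in this order. In leukemic libraries they overlapped for 6 of 9 pairs, and did not for Osm and Il1b, Il1b and Il12a, or Il1rn and Il1a.

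**Figure D3:**
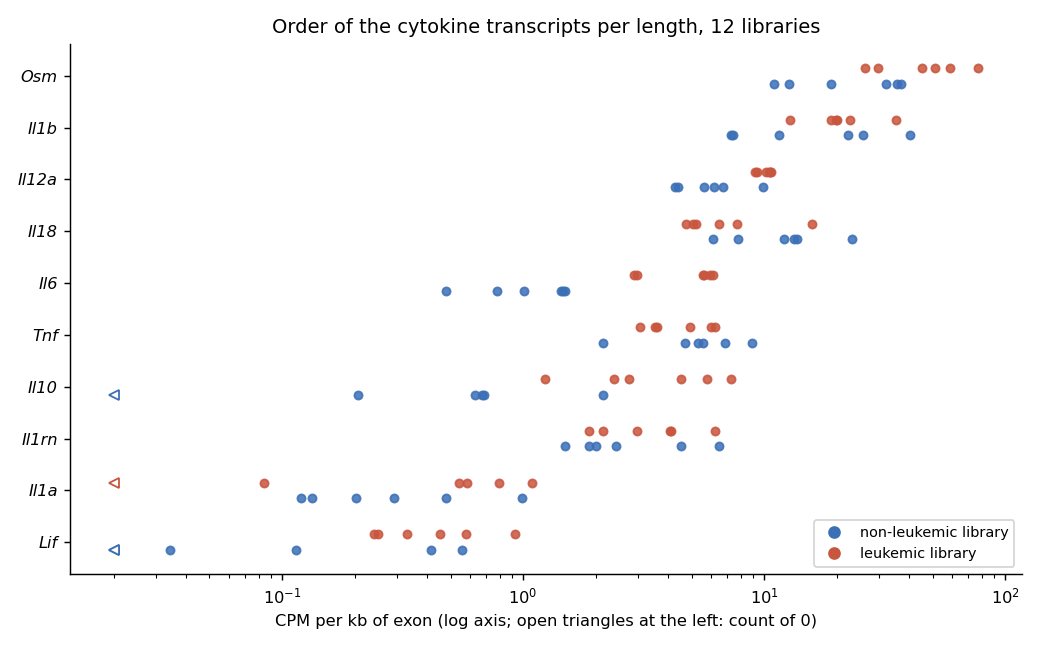
Levels in CPM per kilobase of exon on a log axis, 1 point per library, members ordered by leukemic mean, with open triangles for counts of 0 (those of the 2 Lif libraries coincide). Osm and Il1b lead in both conditions, and Il6 moves from the seventh to the fifth place by mean.

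As a share of the summed per-kilobase signal of the 10 members, Osm went from 32.7% ± 6.92 to 44.8% ± 9.18 (SD, n = 6). The share of Il18 went from 18% ± 6.07 to 7.27% ± 3.51, and that of Il1b from 23.8% ± 7.26 to 20.5% ± 4.19. Il6 went from 1.63% ± 0.623 to 4.77% ± 1.78. These shares sum to a fixed total, so they are not independent of each other, and they were not tested.

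Genes of the cytokines' pathways were taken from 8 lists, with 150 distinct genes in the table and 123 tested. Of these 25 rose and 6 fell, and the median effect on the log2 scale was 0.20. Over all tested genes 8.71% rose and 9.2% fell in the same fit, with a median of -0.01. The list counts below are to be read beside these shares. When 1 library was left out, 19 to 34 rose and 2 to 7 fell, and without both libraries that stood apart 42 rose and 5 fell. That last fit called more genes in general, with 14.9% of all genes rising and 14.1% falling, so larger counts without these libraries, here and in the lists below, are not particular to the lists. In what follows, the value after ± is the SE for a change on the log2 scale and the SD over 6 libraries for a level in CPM.

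In the IL-1 family list 2 of 11 tested genes rose and 0 fell. Il18rap, the accessory chain of the IL-18 receptor, rose by 0.84 ± 0.17 on the log2 scale, from 31.4 ± 5.27 to 59.2 ± 14.0 CPM (edgeR adjusted p = 0.004159). Sigirr, an inhibitory member of the receptor family, rose by 0.83 ± 0.14 (adjusted p = 0.001074). The signalling receptor Il1r1 did not pass, at 9.07 ± 3.86 and 18.3 ± 12.8 CPM (edgeR adjusted p = 0.4077), nor did the decoy Il1r2, at 26.6 and 26.7 CPM, or Il1rap (adjusted p = 0.7181). Il18r1, the ligand-binding chain for IL-18, was at 3.02 and 6.80 CPM (edgeR adjusted p = 0.07149), and its soluble trap Il18bp had an adjusted p of 0.5621.

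Of 20 inflammasome and processing genes 4 rose and 1 fell (without the libraries that stood apart, 9 and 0). Casp8 went from 112 ± 12.7 to 164 ± 18.4 CPM (log2 fold change 0.48 ± 0.09, edgeR adjusted p = 0.003049), and the channel gene Panx1 rose by 0.95 ± 0.23 (adjusted p = 0.01282). Adam17, the protease that sheds TNF, rose by 0.49 ± 0.13 (edgeR adjusted p = 0.01857). Casp4, which encodes the caspase-11 of mice, rose by 0.82 ± 0.24 (adjusted p = 0.03046) and Capn1, a calpain, fell by 0.47 ± 0.15 (adjusted p = 0.04061), but leaving out 1 library ended the call in 6 of 12 fits for Casp4 and 10 of 12 for Capn1. Casp1, which cuts pro-IL-1β and pro-IL-18, was at 42.9 and 68.5 CPM without passing (edgeR adjusted p = 0.184), and Nlrp3, the inflammasome sensor, was at 3.66 and 3.76 CPM (adjusted p = 0.8984).

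In the gp130 list 4 of 20 tested genes rose and 1 fell, and 9 rose without the libraries that stood apart. Il27ra, the IL-27 receptor chain that pairs with gp130, rose by 1.48 ± 0.18 (edgeR adjusted p = 0.0001388), and Junb, a STAT3 target, by 0.58 ± 0.15 (adjusted p = 0.01752). Socs3, the feedback inhibitor, rose by 1.01 ± 0.32 (edgeR adjusted p = 0.04342), a call lost in 8 of 12 fits without 1 library. The receptors themselves gave small values: Il6ra was at 20.5 and 20.3 CPM, Il6st (gp130) at 22.1 and 26.4 CPM, and Lifr had a log2 fold change of 0.08 ± 0.36, none of which passed (edgeR adjusted p of 0.7633 to 0.9093). Osmr had 0 counts in all 12 libraries, and Stat3 had an adjusted p of 0.1045.

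All 6 genes that moved among 17 TNF receptor and signalling genes rose. Traf1, an adaptor of TNF receptors, rose by 1.72 ± 0.28 (edgeR adjusted p = 0.001122), with means of 19.9 ± 6.69 and 71.3 ± 24.0 CPM. Tnfaip3, which encodes the NF-κB inhibitor A20, rose by 1.69 ± 0.30 (adjusted p = 0.001953), Ltb, the gene of lymphotoxin beta, by 1.33 ± 0.24 (adjusted p = 0.002117) and the kinase gene Ripk3 by 0.81 ± 0.20 (adjusted p = 0.01439). The receptors Tnfrsf1a and Tnfrsf1b were at 87.0 and 216 CPM in non-leukemic and 76.4 and 200 CPM in leukemic libraries and did not pass (edgeR adjusted p of 0.6028 and 0.6737). Leaving out 1 library gave 4 to 8 rising genes in this list, and leaving out both that stood apart gave 10.

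In the IL-10 and IL-12 list, 4 of 9 tested genes rose and 0 fell, and the median was 1.22. Stat4, the signal carrier of IL-12, rose by 1.32 ± 0.16 (edgeR adjusted p = 0.0001449), and the receptor chains Il12rb1 and Il12rb2 rose by 2.39 ± 0.34 (adjusted p = 0.0004255) and 1.22 ± 0.31 (adjusted p = 0.0146). Ifng, the interferon that IL-12 induces, rose by 3.26 ± 0.43, from 2.50 ± 1.01 to 24.5 ± 12.7 CPM (edgeR adjusted p = 0.0002265). All 14 T and NK cell markers rose as well, from 0.0469% ± 0.0103 to 0.188% ± 0.0554 of counts, and their part in the rise of these genes was not tested. Receptors Il10ra (94.7 and 93.5 CPM) and Il10rb (50.6 and 51.1 CPM) did not pass (edgeR adjusted p of 0.8219 and 0.7652). Ebi3 (31.2 and 24.7 CPM, adjusted p = 0.4422) and Il27 (0.716 and 1.77 CPM, adjusted p = 0.1635), the subunits of IL-27, did not pass either, and Il23a had 2 counts in each condition and was not tested.

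Of 20 MyD88 and Toll-like receptor genes 0 rose and 3 fell, with a median of 0.00. Irak2, a kinase of this pathway, fell by 0.55 ± 0.13 (edgeR adjusted p = 0.01169), Tollip, an adaptor that restrains it, by 0.34 ± 0.10 (adjusted p = 0.02755) and Tlr2, a receptor for bacterial lipoproteins, by 0.87 ± 0.28 (adjusted p = 0.04649). Leaving out 1 library ended the call in 8 of 12 fits for Tollip and 9 of 12 for Tlr2. Macrophage markers (0 rose and 8 of 14 fell) and neutrophil markers (0 rose and 8 of 15 fell) were lower in the same libraries, and their part in these values was not tested.

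Among 12 genes that control cytokine mRNA decay, 2 rose and 1 fell. Zfp36l2, which binds AU-rich elements, rose by 0.38 ± 0.11 (edgeR adjusted p = 0.02722), Arid5a, which stabilizes Il6 mRNA, by 0.54 ± 0.16 (adjusted p = 0.02963), and Khsrp, a decay factor, fell by 0.48 ± 0.13 (adjusted p = 0.02369). These calls were lost in 3, 6 and 5 of 12 fits without 1 library. Zfp36 (tristetraprolin, 0.42 ± 0.19, edgeR adjusted p = 0.1625) and Zc3h12a (regnase-1, 0.48 ± 0.22, adjusted p = 0.1549), which both destabilize cytokine mRNA, did not pass.

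Of the other cytokine genes, 4 of 15 tested rose and 0 fell: Ifng, Il21, Csf1 and Mif. Il21, a product of helper T cells, had 9 counts in the non-leukemic and 2133 in the leukemic libraries (0.0581 ± 0.120 and 13.2 ± 5.25 CPM, edgeR adjusted p = 3.59e-05). Csf1, the macrophage growth factor, rose by 1.68 ± 0.22 (edgeR adjusted p = 0.0002003), and Mif by 0.75 ± 0.20 (adjusted p = 0.02071).

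**Figure D4:**
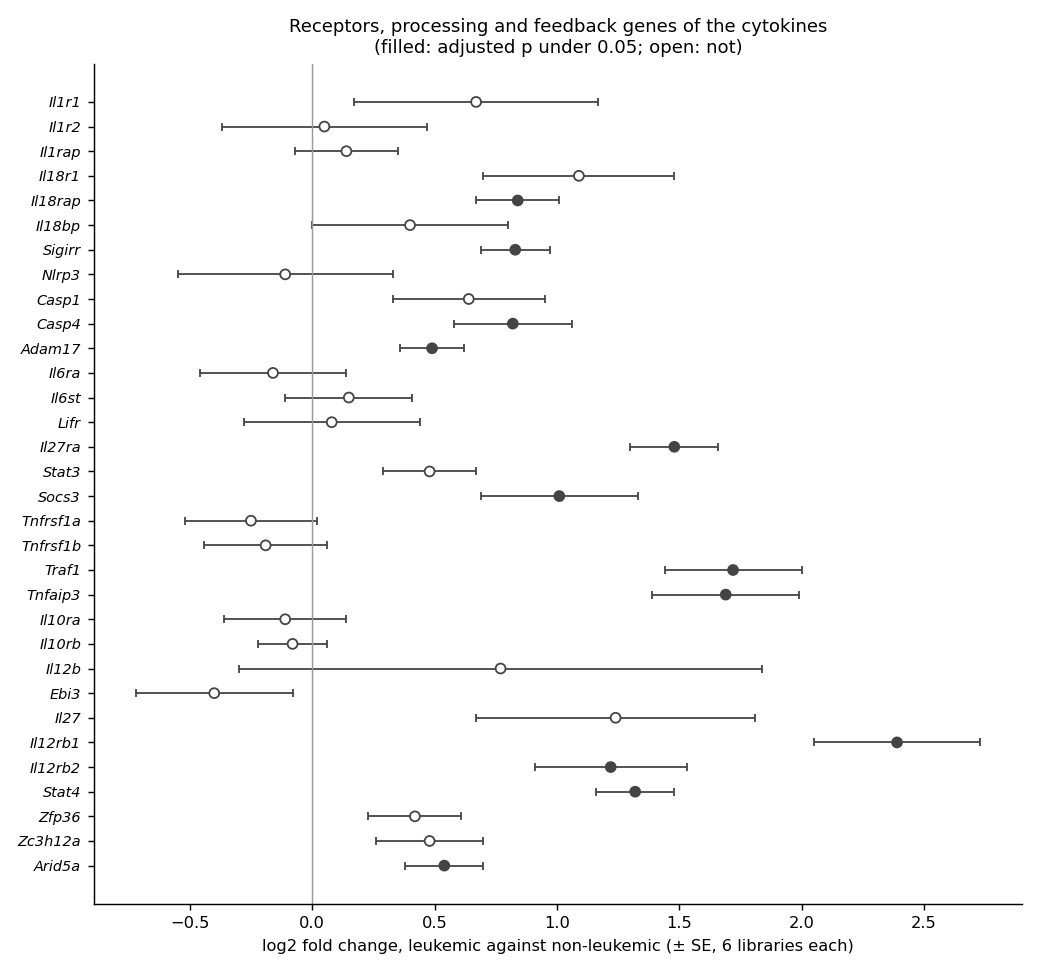
Log2 fold changes, leukemic against non-leukemic, of named receptor, processing and feedback genes from the lists (not the whole lists), with bars of 1 SE and filled points where the gene passed the test. Il12rb1 (2.39), Traf1 (1.72) and Tnfaip3 (1.69) lie farthest above 0, while the receptors Il6ra, Il6st, Tnfrsf1a, Tnfrsf1b, Il10ra and Il10rb are open and near 0.

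Markers of other cell types moved with the conditions in which Il6, Il10, Il12a and Osm rose. Of 11 tested basophil and mast cell markers 7 rose and 0 fell, and Prss34, a basophil protease, was at 3033 CPM in non-leukemic and 9541 CPM in leukemic libraries. Of 12 stem, progenitor and leukemic genes 7 rose and 0 fell, and all 13 erythroid genes fell. Dendritic cell genes were mixed (3 rose and 4 fell of 10). Monocyte genes (0 rose and 1 of 10 fell) and B and plasma cell genes (0 of 10 in either direction) moved little by this count. The B and plasma cell share still ran from 0.0978% to 0.276% in non-leukemic and 0.0778% to 1.04% in leukemic libraries. Female leukemic replicate 1, a library that stood apart, held the highest share. No marker was at 0 in every library. The part of these cells in the cytokine values was not tested.

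**Figure D5:**
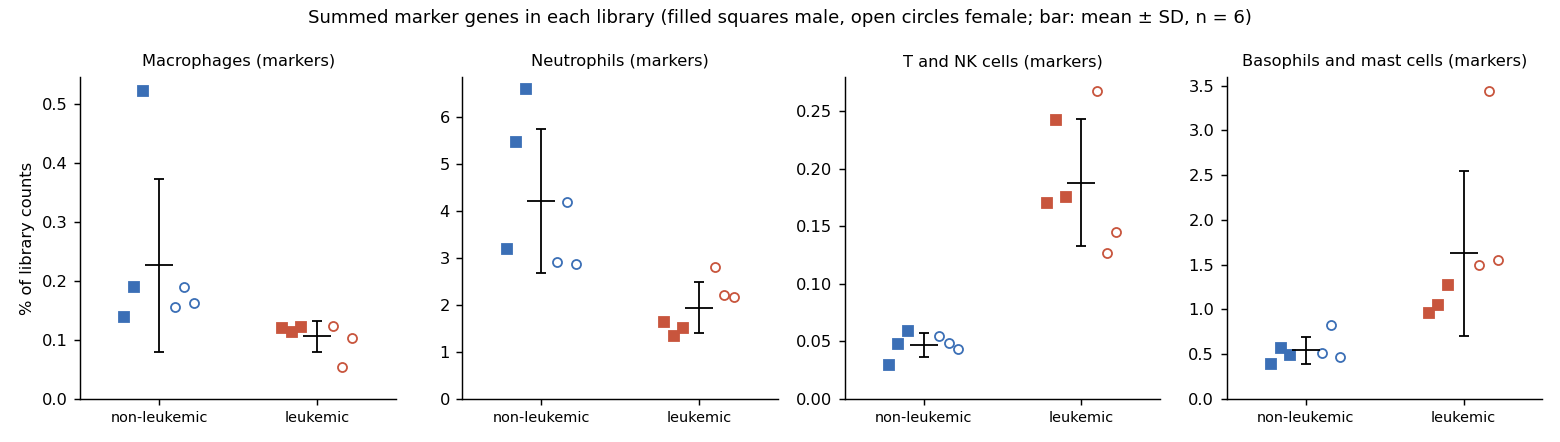
Share of each library's counts held by the macrophage, neutrophil, T and NK cell, and basophil and mast cell marker lists, in percent, 1 point per library (filled squares male, open circles female) with mean ± SD (n = 6). The conditions do not overlap in any list shown. Erythroid markers, not drawn, did not overlap either (1.77% to 2.73% without and 0.166% to 0.339% with leukemia). Every other list not drawn overlapped between the conditions. T and NK cell markers (0.0292% to 0.0586% without and 0.127% to 0.268% with leukemia) and basophil and mast cell markers are higher with leukemia. Macrophage markers (0.139% to 0.522% without and 0.0544% to 0.123% with leukemia) and neutrophil markers (2.87% to 6.6% and 1.33% to 2.8%) are lower.

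Within groups, the members' library-to-library deviations from the 4 group means were compared over 12 libraries, as a description, since libraries share depth and composition. Of 45 member pairs, 4 had Pearson r of at least 0.7 in size: Il1b with Il1rn (r = 0.88, Spearman's rho = 0.83), Il1b with Osm (r = 0.88, rho = 0.83), Il1b with Il18 (r = 0.79, rho = 0.78) and, in the opposite direction, Tnf with Lif (r = -0.76, rho = -0.73). Without the libraries that stood apart these were 0.80, 0.84, 0.24 and -0.70, so the Il1b and Il18 value rests on those libraries. Il1b was most like Ebi3 (r = 0.99), Gpr18 (0.98) and Sat1 (0.98), and these stayed at 0.97, 0.94 and 0.90 without them. Il6 was most like Ccdc59 (r = 0.93), Adamts10 (0.91) and H2bc8 (0.90), Osm like Ypel5 (0.95), Ly6i (0.93) and Ube2n (0.93), and Tnf like Sp140 (0.94), Vsig10l (0.94) and Nfil3 (0.91). Il10 was most like Dhrs7b (0.95), Rpp14 (0.94) and Mbip (0.93), Il12a like Atg10 (0.98), Rnf121 (0.93) and Gpr174 (0.91), and Il18 like Ppp1r11, Rnh1 and Lgals1 (0.98 each). Il1rn was most like Mogat2, Plekhb2 and Arl11 (0.95 each), Il1a like Sec61a2 (0.94), Thtpa (0.90) and Stxbp3 (0.89), and Lif like Paip2b (0.95), Bhlhb9 (0.90) and Sms (0.89). The genes named as most like a member had the 3 highest r out of 10259 or 10260 candidates. With 12 libraries, picking from so many genes gives high r by itself, and none of these values was tested.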

How the data were processed

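RNA of sorted macrophages was amplified from 1 ng as full-length cDNA and made into tagmented libraries, per the labels' protocols; the kit marks neither strand nor molecules, so overlapping genes are not separable and limits from counts cover counting error only. The authors deposited raw read counts per gene. Build GRCm39, STAR 2.7.9a, featureCounts, Subread 2.0.1, fastp 0.23.1, bcl2fastq 2.19.1, R 4.0.2 and DESeq2 1.28.1 are listed in the submitters' processing notes without settings.

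Here genes were filtered with filterByExpr over the 4 groups and scaled by TMM. Tests used edgeR 4.0.16 (robust quasi-likelihood, two-sided) in R 4.3.3. The leukemia effect had sex as a term, and sex-specific effects were contrasts of the 4 group means. Alternatives were RLE factors, DESeq2 1.42.0, voom of limma 3.58.1, other filters and terms, a 1.5-fold minimum change and left-out libraries. No copied library was found (lowest chi-square per degree of freedom 22.62).

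Members, lists and the left-out pair of libraries were chosen with earlier results of these data known. Named genes are the members, fixed receptors and regulators, up to 4 passing genes per list and direction with the lowest p, and the 3 genes most like each member with a mean log2 CPM of at least 2 (prior count 2). Some genes that this rule names are not reported here. Exon lengths came from GENCODE on GRCm38. On simulated data over 15247 genes, 54.6% of 2-fold and 74% of 4-fold changes of the leukemia effect were recovered, and 6.62% of 136 calls were false. The simulation changed 97 genes by 2-fold and 100 by 4-fold, a far smaller share than passed in the data. Only genes above a minimum mean count were changed, and the sexes did not differ. These rates may therefore not hold for the real libraries.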

Additional observations from a re-analysis of the deposited data

Results flagged for a closer look

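Each member was checked in each condition for a library far from the other 5, which chance gives in about 1 in 20 groups. Of 20 groups 2 were marked. Il10 in female non-leukemic replicate 1 was 2.82 CPM, with the next library at 0.899 CPM. Il18 in female leukemic replicate 1, a library that stood apart, was 16.3 CPM, with the next at 7.94 CPM.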

How the results depend on the processing

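Over both sexes, the count of genes past the threshold was 978 against a 1.5-fold minimum change (438 higher and 540 lower), with 1 member (Il6), and 4717 without both libraries that stood apart. Leaving out 1 library gave 2108 to 3910 genes and 2 to 4 members. In males DESeq2 called 2053 genes, limma-voom 0 members, the fit of only the libraries compared 1 member, and leave-one-out fits 513 to 1362 genes and 0 to 2 members. In females DESeq2 called 2359 genes, the fit of only the libraries compared 1 member, and leave-one-out fits 494 to 1494 genes and 0 to 3 members. DESeq2 called 23 genes for the interaction of sex and leukemia, 34 for the sex difference in non-leukemic libraries with 2 members, and 120 for that in leukemic libraries, where leave-one-out gave 0 to 3.

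Correlations of the deviations of same-numbered libraries were -0.032 to 0.078 within a sex across conditions and -0.113 to 0.078 within a condition across the sexes, with 0 of 6 pairs above 0.1 in each case, so the numbers were not taken to pair the samples. As a hint from the data only, the library with the highest correlation had the same number for 6 of 6 female and 2 of 6 male libraries across conditions. Across the sexes it did for 2 of 6 non-leukemic and 0 of 6 leukemic libraries. Pairs are counted from both sides here, so these matches are not independent of each other. With the replicate number as a block, 718 genes and 1 member passed in males, 1 member passed in females, and Il10 was at 2.72 (edgeR adjusted p = 0.05357). The block also turned the sign of Lif in the interaction (0.30) and of Il6 in the sex difference of leukemic libraries (-0.02).

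Of 817 alternative values of single members, 36 changed sign, and neither fit passed in any of those 36. RLE factors and DESeq2 gave Il12a -0.02 and the fit of only the libraries compared -0.03 in the sex difference of non-leukemic libraries. The other sign changes came from leaving out 1 library. Over those fits the leukemia effect ran from -0.44 to 0.57 for Il1a and -0.18 to 0.52 for Il1rn. In males it ran from -0.73 to 0.36 for Il1rn, and in females from -2.06 to 0.60 for Il1a, -0.86 to 0.19 for Il18 and -0.31 to 0.37 for Tnf. The interaction ran from -2.55 to 0.11 for Il1a, -0.30 to 0.40 for Il12a and -2.02 to 2.96 for Lif. The sex difference ran from -0.24 to 0.47 for Il12a, -0.79 to 0.22 for Il18, -1.17 to 0.25 for Il1rn and -3.60 to 1.38 for Lif in non-leukemic libraries, and from -0.34 to 0.59 for Il1b and -0.21 to 0.32 for Il6 in leukemic ones. No member failed the low-count filter, so the alternatives planned for such members gave no value, and Il1a and Lif had none under the 5 CPM filter. Members at a few CPM, such as Lif and Il1a, had intervals too wide to show changes of the size seen for Il12a. The cause of these dependences was not tested.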
